A study of Mus musculus with 12 samples.

Results

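Transcripts of 10 genes of the urothelium, the stratified lining of the bladder and urinary tract, were followed through RNA-seq libraries of mouse adipose stromal cells. The genes are Upk1a, Upk2, Upk3a, Psca, Sprr1a, Grhl3, Krt13, Krt20, Krt5 and Trp63, and all 10 were found by symbol among the 24422 genes in the count tables. The genes were chosen by their levels, which had been seen in these libraries, so the levels below are a description and carry no test of their own. Groups compared here had 3 libraries each. SD mCherry (replicates 1, 2 and 3) came from mice of genotype p21+/mcherry on a standard diet, and HFD mCherry (replicates 15, 17 and 20) from p21+/mcherry mice fed a high-fat diet. HFD Tert (replicates 25, 26 and 27) and HFD TertCi (replicates 30, 31 and 33) came from p21+/mcherry-Tert and p21+/mcherry-TertCi mice on the high-fat diet. All groups thus carry an mCherry allele at p21, the gene Cdkn1a, and in the last 2 that allele also holds Tert or TertCi, driven by the p21 promoter, so expression is tied to cells that use this promoter. The series text calls the high-fat diet control p21+/-, and the titles of both mCherry groups read P21het. Age, fat depot and whether a library pools animals are not given in the sources used here.

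Urothelium is built from basal cells, which express Krt5 and the transcription factor Trp63, intermediate cells, and large superficial umbrella cells. Umbrella cells cover their surface with plaques of uroplakins, which pair as Upk1a with Upk2 and Upk1b with Upk3a, and they express the keratin Krt20. Grhl3, a Grainyhead-like transcription factor, acts in the terminal differentiation of umbrella cells and of other barrier epithelia. Adipose stroma is made of fibroblast-like precursors, vessels and immune cells and is not known as a source of uroplakins. Krt5 and Trp63 are shared by basal cells of many epithelia, including skin, prostate and epididymis, so they do not mark urothelium alone.

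The libraries held 16430330 to 19486965 counts, and 16713 genes passed the low-count filter, all 10 urothelial genes among them. Levels are given as CPM, counts scaled to a common library size after TMM normalization. A count of 0 allows up to 0.145 to 0.193 CPM, depending on the library, at 3 counts. The labelled cell type was checked with markers of adipose stroma. Pdgfra and Dcn of fibroblast-like cells, Ptprc of leukocytes and Pecam1 of endothelium were present in all 12 libraries, at no less than 56.7, 1438, 18.3 and 175 CPM. No label says whether replicates came from separate mice. The p-values therefore set group differences against the spread between these libraries, which may be technical. In bulk RNA, fewer cells of a type and less RNA per cell cannot be told apart.

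Libraries stood apart from the others of their group before any comparison was made. SD mCherry replicate 2, HFD Tert replicate 25 and HFD Tert replicate 26 had summed levels over the 10 genes of 1948, 1821 and 1396 CPM. The next were SD mCherry replicate 1 at 150 CPM, HFD mCherry replicate 15 at 131 CPM and SD mCherry replicate 3 at 102 CPM. HFD TertCi replicates 30 and 33 had 90.7 and 56.4 CPM, and HFD mCherry replicate 20 and HFD TertCi replicate 31 had 20.6 and 12.2 CPM. HFD mCherry replicate 17 had 6.07 CPM and HFD Tert replicate 27 had 2.11 CPM. HFD Tert thus held both the second highest library and the lowest. At 1 CPM or more, SD mCherry replicate 2 and HFD Tert replicate 25 carried 10 of the 10 genes and HFD Tert replicate 26 carried 9, while HFD Tert replicate 27 carried 1. Over all libraries 71 of the 120 gene and library pairs reached 1 CPM.

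**Figure D1:**
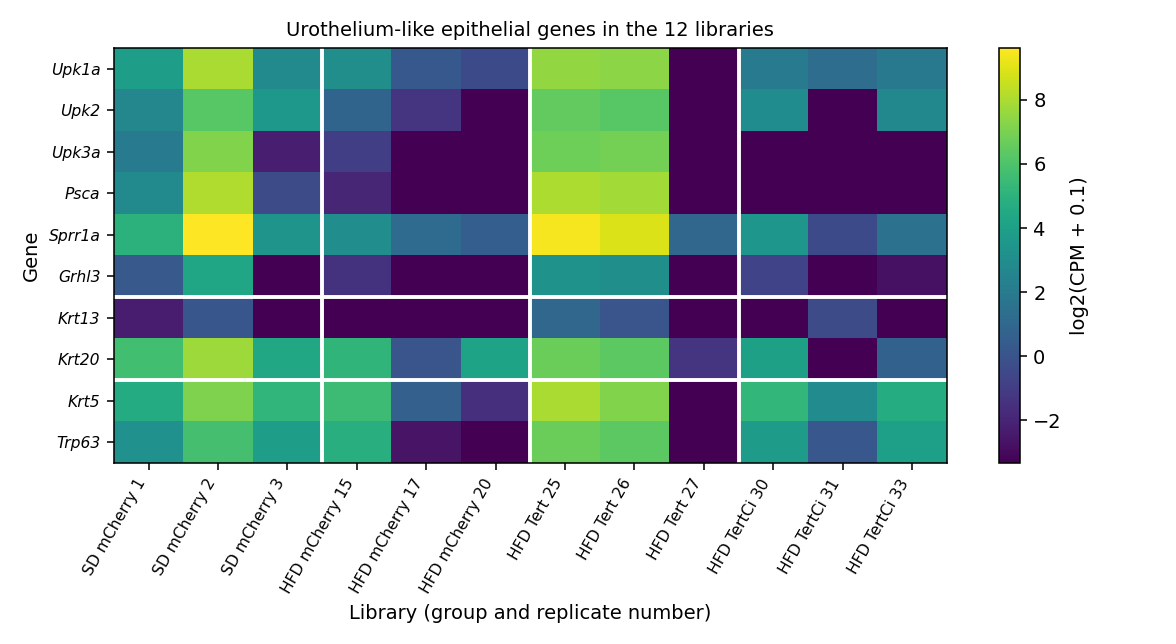
Level of each urothelial gene (rows, log2(CPM + 0.1)) in each of the 12 libraries (columns, 3 per group, white lines between groups). SD mCherry 2, HFD Tert 25 and HFD Tert 26 are the brightest columns in every row, though faint for Krt13, while Upk3a and Psca are dark in most other columns and Krt5, Trp63 and Krt20 are at intermediate levels in several.

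The uroplakins of the umbrella cell surface were examined first. Upk1a, a tetraspanin, was at 14.6, 253 and 6.87 CPM in SD mCherry, 8.19, 1.08 and 0.657 CPM in HFD mCherry, 185, 166 and 0 CPM in HFD Tert, and 3.98, 2.38 and 3.61 CPM in HFD TertCi, in replicate order. Upk2, its partner, was at 6.16, 76.4 and 11.9 CPM in SD mCherry, 1.69, 0.301 and 0 CPM in HFD mCherry, 90.5, 75.2 and 0 CPM in HFD Tert, and 7.75, 0 and 6.41 CPM in HFD TertCi. Both were high in the same 3 libraries, and each was at 0 in HFD Tert replicate 27. Upk3a, which pairs with Upk1b, was at 4.07, 141 and 0.115 CPM in SD mCherry, 0.437, 0 and 0 CPM in HFD mCherry, 110, 122 and 0 CPM in HFD Tert, and 0 in all HFD TertCi libraries. It was the most sharply divided uroplakin: 6 of the 12 libraries had no count, and SD mCherry replicate 1, the next below the high libraries, had 80 counts. Upk2 differed from Upk3a in the libraries of intermediate level, where HFD TertCi replicates 30 and 33 had 152 and 128 Upk2 counts and no Upk3a count.

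The genes of uroplakins lie on separate chromosomes. Upk1a is at chr7:30603092-30612847 on the minus strand, Upk2 at chr9:44452715-44454976 on the minus strand and Upk3a at chr15:85017141-85022547 on the plus strand (GENCODE M21 on GRCm38, the assembly also called mm10). No other annotated gene overlaps the 3 uroplakin genes. Because Upk1a, Upk3a and Sprr1a were high in the same libraries, their promoters are shown with that of Krt5. Krt5 was highest in these libraries too, but its level fell less steeply from them to the next library. Each runs from 250 bases before to 50 bases after the RefSeq start site (GRCm38.p6), 5′ to 3′ on the strand of the gene. Capitals mark matches to motifs described further on.
Upk1a, chr7:30612685-30612984, minus strand: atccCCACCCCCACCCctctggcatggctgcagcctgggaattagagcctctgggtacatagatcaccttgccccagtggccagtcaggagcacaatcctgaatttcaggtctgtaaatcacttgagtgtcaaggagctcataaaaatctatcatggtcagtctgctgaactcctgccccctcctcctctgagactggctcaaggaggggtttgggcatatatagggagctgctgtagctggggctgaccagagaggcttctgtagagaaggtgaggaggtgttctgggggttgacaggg
Upk3a, chr15:85016891-85017190, plus strand: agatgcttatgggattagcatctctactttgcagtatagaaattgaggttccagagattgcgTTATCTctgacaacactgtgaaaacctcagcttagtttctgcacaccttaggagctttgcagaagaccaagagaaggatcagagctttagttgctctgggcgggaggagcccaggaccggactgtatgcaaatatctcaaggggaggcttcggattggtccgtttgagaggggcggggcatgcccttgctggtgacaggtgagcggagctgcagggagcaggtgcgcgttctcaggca
Sprr1a, chr3:92485832-92486131, minus strand: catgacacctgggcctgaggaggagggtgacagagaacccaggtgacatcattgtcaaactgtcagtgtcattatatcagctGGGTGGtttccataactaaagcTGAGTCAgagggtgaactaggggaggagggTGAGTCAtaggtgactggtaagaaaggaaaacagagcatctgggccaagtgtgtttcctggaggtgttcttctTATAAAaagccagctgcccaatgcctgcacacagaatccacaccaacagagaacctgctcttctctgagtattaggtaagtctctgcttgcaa
Krt5, chr15:101712856-101713155, minus strand: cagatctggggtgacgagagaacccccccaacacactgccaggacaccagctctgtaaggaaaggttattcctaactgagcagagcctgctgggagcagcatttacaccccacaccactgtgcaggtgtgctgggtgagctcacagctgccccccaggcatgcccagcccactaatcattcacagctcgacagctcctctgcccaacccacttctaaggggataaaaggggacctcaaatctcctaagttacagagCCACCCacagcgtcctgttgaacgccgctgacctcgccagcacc

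Of the motifs searched on both strands, 6 in all, none was shared by all 3 promoters of Upk1a, Upk3a and Sprr1a. TATAAA, the TATA box, was in the Sprr1a promoter, where it began at base -43 from the start site, and it was in 13.6% of the 32851 promoters of the same length. The AP-1 motif TGANTCA occurred at -146 and -116 of Sprr1a and in 7.81% of all promoters. The GATA motif AGATAA occurred on the opposite strand at -188 of Upk3a and in 11.2% of all. CCACCC, a KLF motif, was in Upk1a at -246 and -240, in Sprr1a at -168 on the opposite strand and in Krt5 at 7, and in 31.5% of all promoters. Over the 8 promoters entered for 7 of the genes, 6 held CCACCC, 3 TGANTCA, 2 TATAAA and 2 AGATAA. The Grainyhead-like motif AACNGGTT and the forkhead motif TGTTTAC, in 2.09% and 3.65% of all promoters, were in 0 of the 8. No 2 matches in the printed promoters overlap, and a match describes the letters only. Upk2, Psca and Trp63 had no entry.

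Psca, Sprr1a and Grhl3 belong to the differentiated layers. Psca, a small surface protein anchored by glycosylphosphatidylinositol and known from prostate and bladder, was at 7.17, 267 and 0.692 CPM in SD mCherry and 0.164, 0 and 0 CPM in HFD mCherry. It was at 264, 224 and 0 CPM in HFD Tert and had no count in the 3 HFD TertCi libraries. Its 4521 counts in HFD Tert replicate 25 stood beside 0 in replicate 27 of the same group. Sprr1a, a small proline-rich protein of the cornified envelope that stressed epithelia also express, had the highest level of the 10 genes in SD mCherry replicate 2 and HFD Tert replicates 25 and 26, also per exon length. It was at 31.5, 783 and 10.4 CPM in SD mCherry, 8.13, 2.22 and 1.37 CPM in HFD mCherry, 704, 495 and 1.82 CPM in HFD Tert, and 10.9, 0.644 and 2.86 CPM in HFD TertCi. Sprr1a alone was counted in every library, with 10 to 16160 counts. Grhl3 was at 1.12, 20.1 and 0 CPM in SD mCherry, 0.273, 0 and 0 CPM in HFD mCherry, 9.63, 8.65 and 0 CPM in HFD Tert, and 0.51, 0 and 0.0501 CPM in HFD TertCi. It reached 1 CPM in 4 libraries, the same number as Upk3a and Psca.

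Of the basal and keratin genes, Krt5, Trp63 and Krt20 reached 1 CPM in more libraries than Upk3a, Psca and Grhl3. They did not do so in more libraries than Upk1a (10) or Sprr1a (11), and Krt13 reached 1 CPM in only 2. Krt5, the basal keratin, was at 24.6, 138 and 36.4 CPM in SD mCherry, 47.4, 1.44 and 0.239 CPM in HFD mCherry, 250, 142 and 0 CPM in HFD Tert, and 37.6, 7.47 and 26.1 CPM in HFD TertCi. Trp63, which specifies basal cells, was at 9.26, 55.0 and 14.9 CPM in SD mCherry, 28.6, 0.0601 and 0 CPM in HFD mCherry, 104, 80.8 and 0 CPM in HFD Tert, and 13.5, 1.03 and 15.9 CPM in HFD TertCi. Krt5 reached 1 CPM in 10 libraries and Trp63 in 9, and both were low in HFD mCherry replicates 17 and 20 and at 0 in HFD Tert replicate 27. In GENCODE M21 the miRNA gene Gm44323 lies on the opposite strand within the Krt5 exons, and whether reads were counted by strand is not stated. Krt20 was at 51.4, 213 and 20.7 CPM in SD mCherry, 35.7, 0.962 and 18.3 CPM in HFD mCherry, 103, 82.0 and 0.294 CPM in HFD Tert, and 16.5, 0 and 1.5 CPM in HFD TertCi. It parted from Krt5 in HFD mCherry replicate 20, where 307 counts of Krt20 stood beside 4 of Krt5. Krt13, a keratin of stratified epithelia without a cornified layer, stayed near the limit of counting, with 31, 21 and 18 counts in HFD Tert replicate 25, SD mCherry replicate 2 and HFD Tert replicate 26, 11 in HFD TertCi replicate 31, 2 in SD mCherry replicate 1 and 0 in the other 7 libraries.

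For all 10 genes the highest 3 libraries were SD mCherry replicate 2, HFD Tert replicate 25 and HFD Tert replicate 26. The same was true of 226 of the 16713 tested genes (1.35%), and since the genes were listed with their levels known, nothing is read from the contrast. The step below these libraries differed in size between genes. The third highest library exceeded the next one by 31.2-fold for Psca, 26.9-fold for Upk3a, 15.7-fold for Sprr1a and 11.4-fold for Upk1a. Grhl3 and Upk2 followed with steps of 7.72-fold and 6.30-fold. The step was 2.92-fold for Krt5, 1.92-fold for Trp63 and 1.6-fold for Krt20. For Krt13 it was 1.36-fold and rests on 18 against 11 counts. The step was therefore over 6-fold for the uroplakins, Psca, Sprr1a and Grhl3 and under 3-fold for the keratins and Trp63. This next library was SD mCherry replicate 1 for Upk1a, Upk3a, Psca, Sprr1a, Krt20 and Grhl3, SD mCherry replicate 3 for Upk2, HFD mCherry replicate 15 for Krt5 and Trp63, and HFD TertCi replicate 31 for Krt13.

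**Figure D2:**
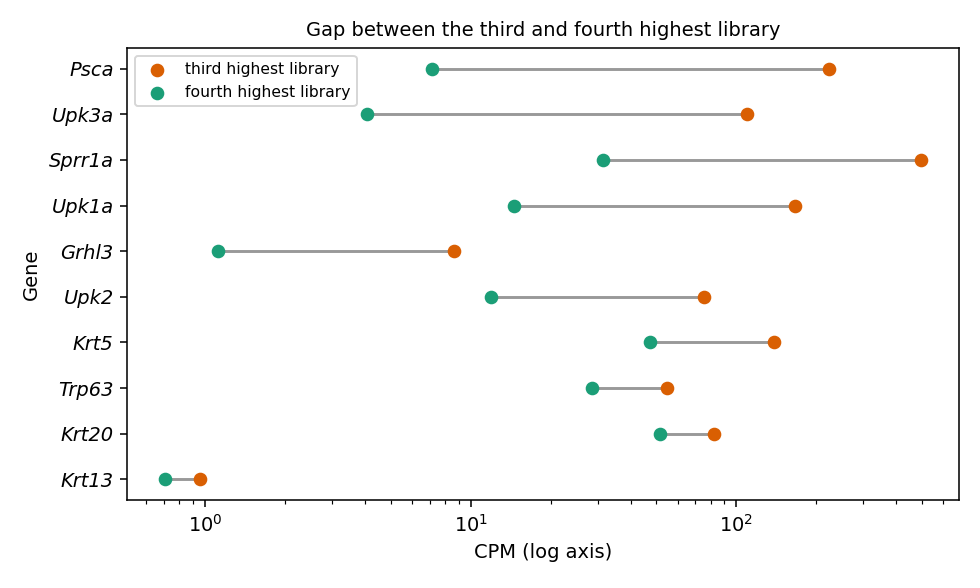
CPM (log axis) of the third highest library (orange) and the next one (green) for each gene, ordered by their ratio. The line is longest for Psca, 224 against 7.17 CPM, and short for Trp63, Krt20 and Krt13.

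Upk3a and Krt5 within a library were set side by side as the share of Upk3a in the counts of both together. It is given with an exact (Clopper-Pearson) 95% binomial interval that covers counting error only. Since basal cells of other epithelia also express Krt5, the share need not describe a single epithelium. The source of the Krt5 counts was not tested. The share is of counts and is not corrected for length, so it serves to compare libraries and not the 2 genes. It was 50.5% (49.2 to 51.8) in SD mCherry replicate 2, 46.2% (44.8 to 47.6) in HFD Tert replicate 26 and 30.5% (29.3 to 31.6) in HFD Tert replicate 25. SD mCherry replicate 1 had 14.2% (11.4 to 17.3). In SD mCherry replicate 3 and HFD mCherry replicate 15, with 631 and 869 Krt5 counts, it was 0.316% (0.0383 to 1.14) and 0.912% (0.395 to 1.79). No Upk3a count was found beside 737, 116 and 520 Krt5 counts in HFD TertCi replicates 30, 31 and 33, with exact upper limits of 0.499%, 3.13% and 0.707%. The share of Upk3a thus differed between the libraries with Krt5. Both genes were chosen by their levels in these libraries, so the intervals are no test of that difference. Too few Krt5 counts were present in HFD mCherry replicates 17 and 20 (24 and 4) and HFD Tert replicate 27 (0) to place them.

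Krt14, another basal keratin of skin, epididymis and other epithelia and not one of the 10 genes, had its lowest shares in the 3 libraries with the highest Upk3a shares. Its share of Krt14 and Krt5 counts was 1.38% (0.990 to 1.88) in SD mCherry replicate 2, 20.1% (19 to 21.2) in HFD Tert replicate 25 and 24.7% (23.3 to 26.2) in HFD Tert replicate 26. In the other libraries with over 100 Krt5 counts it ran from 58.5% (55.7 to 61.2) in HFD TertCi replicate 33 to 84.9% (82.2 to 87.4) in HFD TertCi replicate 31. Krt5, the other part of the share, was highest in these same 3 libraries, which lowers the share by itself. In CPM, Krt14 was at 1.94 in SD mCherry replicate 2 and at 114 in HFD mCherry replicate 15, while Krt5 was at 138 and 47.4 CPM. HFD Tert replicates 25 and 26 held Krt14 at 62.7 and 46.6 CPM, above the 36.7 CPM of HFD TertCi replicate 33, with Krt5 at 250 and 142 CPM. Of the 3 libraries, Krt14 itself was thus low only in SD mCherry replicate 2. Krt17 was also low in SD mCherry replicate 2, at 0.145 CPM, and at 23.1 and 6.88 CPM in HFD Tert replicates 25 and 26. Krt14, Krt17 and this ratio were chosen after their values were seen.

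**Figure D3:**
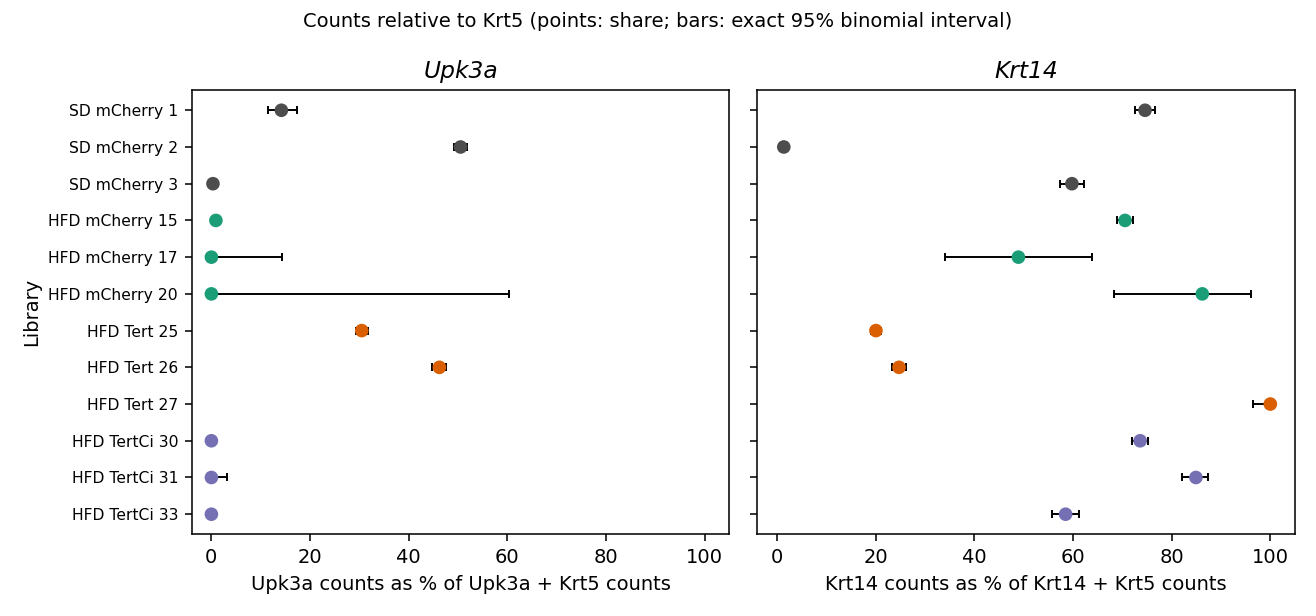
Counts of Upk3a (left) and Krt14 (right) as a percentage of the counts of that gene plus Krt5 in each library, with exact 95% binomial intervals. Colours are groups, and HFD Tert 27 has no Upk3a point because neither gene was counted. SD mCherry 2, HFD Tert 25 and HFD Tert 26 are highest for Upk3a and lowest for Krt14.

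To order the genes within a library, levels were divided by length, as CPM per kilobase of annotated exon. In SD mCherry replicate 2 the order was Sprr1a (972), Psca (311), Upk1a (178), Upk3a (129), Krt20 (111), Upk2 (70.6), Krt5 (62.9), Grhl3 (7.19), Trp63 (6.56) and Krt13 (0.559). Sprr1a, Psca and Upk1a led in the same order in HFD Tert replicates 25 (874, 307 and 130.0) and 26 (615, 260.2 and 117). Krt5 came below Upk2 in SD mCherry replicate 2 and in HFD Tert replicate 26, at 64.5, and above Upk2 and Upk3a in HFD Tert replicate 25, at 114. Krt20 came above Upk2 and Krt5 in SD mCherry replicate 2 and below both in the HFD Tert libraries, at 53.3 and 42.6. The 2 transcription factors and Krt13 took the last 3 places in all 3 libraries. Trp63 has alternative starts, and its 8391 bases of merged exons may exceed the length in use.

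The label groups were then compared with the spread of their libraries. Mean levels of Upk3a were 48.4 ± 80.3 CPM (SD, n = 3) in SD mCherry, 0.146 ± 0.252 in HFD mCherry and 77.1 ± 67.1 in HFD Tert, and it was not counted in HFD TertCi. For Psca the means were 91.7 ± 152 CPM (SD, n = 3), 0.0546 ± 0.0945 and 162 ± 142 CPM, with no count in HFD TertCi. Sprr1a stood at 275 ± 440, 3.91 ± 3.68, 401 ± 361 and 4.79 ± 5.38 CPM and Krt5 at 66.4 ± 62.5, 16.4 ± 26.9, 131 ± 125 and 23.7 ± 15.2 CPM in SD mCherry and then the high-fat diet groups mCherry, Tert and TertCi (SD, n = 3 each). HFD Tert had the highest mean for these 4 genes and SD mCherry the next. For Krt20 SD mCherry led, with 95 ± 103 CPM against 61.7 ± 54.2 CPM in HFD Tert (SD, n = 3 each). Yet for Upk3a, Psca and Sprr1a the SD of SD mCherry exceeded its mean. These neighbours in the order overlapped, since HFD Tert replicate 27 was below every SD mCherry library for each of them.

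**Figure D4:**
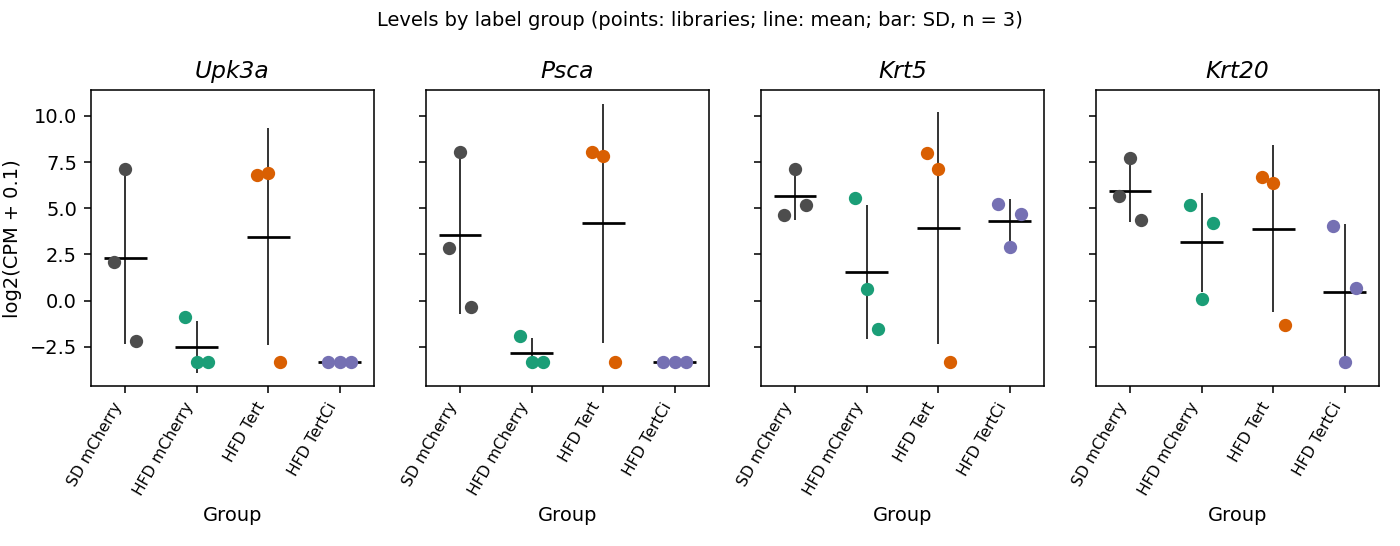
log2(CPM + 0.1) of Upk3a, Psca, Krt5 and Krt20 in the 4 groups. Points are libraries, horizontal lines group means and vertical bars the SD (n = 3). One SD mCherry point and 2 HFD Tert points lie far above the rest for Upk3a and Psca, and the third HFD Tert point lies at the bottom.

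In the edgeR quasi-likelihood fit over all 12 libraries and 16713 genes, 0 of the 10 genes passed an adjusted p of 0.05 in any comparison. The genes were chosen by their levels in these libraries. Their unadjusted p-values, and any excess over the share of all genes, follow in part from that choice. The same holds for the DESeq2 calls and for the overlaps given further on, and nothing is read from these contrasts. For HFD mCherry against SD mCherry 0.0479% of all tested genes passed, and the smallest adjusted p among the 10 genes was 0.133 (Psca), with 6 of 10 at an unadjusted p under 0.05 against 24.1% of all genes. For HFD Tert against HFD mCherry 0% passed, the smallest edgeR adjusted p was 0.224 (Psca), and 7 of 10 had an unadjusted p under 0.05 against 16.4%. For HFD TertCi against HFD mCherry 0.012% passed, the smallest edgeR adjusted p was 0.474 (Krt13), and 0 of 10 were under 0.05 unadjusted against 14.7%. For HFD Tert against HFD TertCi 0% passed, every edgeR adjusted p was 1, and 4 of 10 were under 0.05 unadjusted against 1.36%. The F-test over the 4 groups called 0 of 10, against 0.012% of all genes, with a smallest edgeR adjusted p of 0.155 (Psca) and 4 of 10 under 0.05 unadjusted against 20.2%. The 6 genes of the diet comparison became 0 without SD mCherry replicate 2, without HFD mCherry replicate 17 or without HFD mCherry replicate 20, and the 7 of the Tert comparison became 2 without either of the last pair and 4 without either HFD Tert replicate 25 or 26. The 4 between HFD Tert and HFD TertCi became 2 without HFD TertCi replicate 33 and 6 without HFD Tert replicate 27. DESeq2 called Psca and Sprr1a in the diet comparison (smallest adjusted p 0.00639, 12.4% of all genes called), in HFD Tert against HFD mCherry (0.00658, 5.08%) and over the 4 groups (0.00814, 13.8%), while it called 0 in HFD TertCi against HFD mCherry (4.09% of all genes) and 0 in HFD Tert against HFD TertCi (0.0419%). DESeq2 gave 1 of the 10 genes no adjusted p in 4 of these 5 tests. limma-voom called 0 of 10 throughout, with 0 under 0.05 unadjusted.

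The groups did not overlap for 3 of 10 genes in the diet comparison, where 11.9% of all genes were lower without overlap: Upk2, Psca and Sprr1a, each lower in 3 of 3 HFD mCherry libraries. They overlapped for all 10 genes in the other comparisons, where 20.9% (Tert), 21.3% (TertCi) and 5.13% (Tert against TertCi) of all genes did not overlap in either direction. The comparisons with HFD mCherry share its libraries. The median difference of the 10 genes in mean log2(CPM + 0.1) was -4.25 for the diet, with 0 of 10 positive, and -0.0732 over all tested genes. Without SD mCherry replicate 2 it was -2.51. In the same comparison 8 of 8 adipose stromal markers were higher in mean log2 level, by a median of 1.65, and 7 of them did not overlap between groups, against 25.5% of all genes in either direction. All 18 general epithelial genes and all 6 smooth muscle genes were lower, by medians of -2.64 and -2.06, and edgeR called 0 genes of these lists for the diet. The part of the make-up of the libraries in the difference was not tested. For HFD Tert against HFD mCherry the median was 3.67, with 10 of 10 positive, against -0.0438 over all genes. Without HFD Tert replicates 25 and 26 the median was -1.43, with 0 of 10 positive. These libraries were left out for their high Upk3a level, and only HFD Tert replicate 27, the lowest library for the 10 genes, remained. The reversal thus follows from the choice of libraries, and nothing is concluded from it. For HFD Tert against HFD TertCi the median was 2.82, with 9 of 10 positive, against -0.0129 over all genes. With HFD Tert replicate 27 alone it was -1.44, with 0 of 10 positive, under the same limit. For HFD TertCi against HFD mCherry it was 0.606, with 6 of 10 positive, against -0.0234 over all genes. The median over the 10 genes of the pooled SD between libraries on this scale was 2.60 for the diet, 4.25 for HFD Tert against HFD mCherry, 1.49 for HFD TertCi against HFD mCherry and 4.23 between HFD Tert and HFD TertCi. Without SD mCherry replicate 2 and HFD Tert replicates 25 and 26 together, 9 of the 10 genes passed the filter and edgeR called 0 of them.

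Other genes of the urothelium, 15 in number and none of them among the 10, were examined to see how far the pattern extends. Of these, 7 had the same highest 3 libraries: Upk1b, Snx31, Krt7, Krt19, Foxa1, Klf5 and Aqp3. The share over all tested genes was 1.35%, and nothing is read from the contrast, since the lists were chosen with earlier results known. The step to the next library was 13.9-fold for Aqp3, 6.94-fold for Krt7, 6.25-fold for Snx31, 3.55-fold for Upk1b and 2.74-fold for Foxa1. It was only 1.13-fold for Klf5 and 1.07-fold for Krt19. Snx31, a sorting nexin abundant in umbrella cells, was at 88.6, 72.9 and 77.5 CPM in SD mCherry replicate 2, HFD Tert replicate 25 and HFD Tert replicate 26, and at 11.7 CPM or less elsewhere. Aqp3, a water and glycerol channel of basal epithelial cells, was at 132, 259 and 239 CPM in them and at 9.51 CPM or less elsewhere. Upk1b, the partner of Upk3a, was at 215, 217 and 261 CPM, but it was also at 11.8 to 60.6 CPM in the other 9 libraries. Upk3b did not follow, with 269, 273 and 533 CPM in those libraries beside 358 CPM in HFD TertCi replicate 31. Both Upk1b and Upk3b are expressed by mesothelium, the lining of the body cavity and of visceral fat. The mesothelial list, which holds Upk1b, Upk3b and Krt19 as well, had 9 of 9 genes tested and summed levels of 534 to 1549 CPM in SD mCherry, 345 to 374 in HFD mCherry, 918 to 1968 in HFD Tert and 750 to 1212 in HFD TertCi, with no gene at 0 throughout a group. The simple keratins Krt8 (19.1 to 1817 CPM), Krt18 (20.7 to 1246) and Krt19 (33.1 to 694) and the tight junction gene Cldn4 (0.176 to 822) were high in many more libraries than the uroplakins. In the diet comparison 15 of the 15 genes were lower in mean log2 level and edgeR called 0, and in HFD Tert against HFD mCherry 12 were higher and edgeR called 0. The name urothelium-like rests mainly on SD mCherry replicate 2 and HFD Tert replicates 25 and 26. There all 3 uroplakins of the list were high together with Psca, Snx31 and Foxa1. Snx31 and Foxa1 were among the genes nearest to Upk2 in these libraries, so they are no separate support. Gata3, Elf3 and Shh, of the same 15 genes, did not have the same highest 3 libraries. Gata3 was highest in HFD Tert replicate 25, at 208 CPM. It was at 96.0 CPM in HFD Tert replicate 26, 35.1 CPM in SD mCherry replicate 2 and 182 and 187 CPM in HFD TertCi replicates 30 and 33. Shh was highest in HFD Tert replicate 25 and SD mCherry replicate 2, at 33.3 and 25.2 CPM, before HFD TertCi replicate 30 at 20.9 CPM. Elf3 was at 354 CPM in SD mCherry replicate 2. In HFD Tert replicates 25 and 26 it was at 96.1 and 79.8 CPM, below the 146 CPM of HFD mCherry replicate 15. Upk2, Snx31 and Foxa1 were also counted together, at lower levels, in SD mCherry replicate 1 (121, 169 and 116 counts of Upk2, Foxa1 and Snx31), SD mCherry replicate 3 (207, 127 and 202), HFD TertCi replicate 30 (152, 116 and 149) and HFD TertCi replicate 33 (128, 143 and 141). All 4 of these libraries also had Upk1a, at 286, 119, 78 and 72 counts in the same order. SD mCherry replicate 1 had Upk3a and Psca as well, at 80 and 141 counts, so it held the same genes at lower levels. The others of the 4 had 2 or fewer Upk3a counts and 12 or fewer Psca counts. HFD mCherry replicate 15 had fewer counts of Upk2, Foxa1 and Snx31 (31, 27 and 17), with Upk1a, Upk3a and Psca at 150, 8 and 3.

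Some genes of stratified epithelia shared this pattern and others did not. Of 25 listed, 19 were tested, and 5, namely Ivl, Sfn, Lamb3, Ly6d and Lypd3, had the same highest 3 libraries, beside 1.35% of all tested genes. Krt14 and Krt17, on the same list, were among those that did not. The step to the next library was 8.29-fold for Ivl, 2.65-fold for Ly6d and 1.70-fold for Lypd3. It was only 1.14-fold for Sfn and 1.11-fold for Lamb3. Ivl, involucrin of the cornified envelope, was at 67.2, 53.9 and 38.4 CPM in SD mCherry replicate 2, HFD Tert replicate 25 and HFD Tert replicate 26, at 4.63 CPM in SD mCherry replicate 1 and at 0.231 CPM or less elsewhere. Ly6d, a surface protein of stratified epithelia and lymphoid progenitors, was at 265, 386 and 290 CPM and at up to 100 CPM in SD mCherry replicate 3. Sprr1b, a neighbour of Sprr1a in its gene family, had no count in any library, and Dsg3, a desmosomal cadherin of skin and oral mucosa, reached 0.145 CPM. Dsp, Perp and Sfn, of desmosomes and keratinocyte growth control, were at up to 332, 227 and 290 CPM and were detected in all 12 libraries. Epidermal genes were low: of 9 found, 5 stayed under 1 CPM and Calm4 had no count, and the highest, Sbsn, was at 34.4 CPM in HFD TertCi replicate 31, where Upk1a, Upk2 and Upk3a were at 2.38 CPM or less. Of 10 prostate and seminal vesicle genes, 7 stayed under 1 CPM in all libraries and Svs3a, Svs4 and Pbsn had no count. edgeR called no gene of these 3 lists in any comparison.

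Markers of other tissues moved with the urothelial genes in some libraries and not in others. The epididymis and vas deferens list summed to 76.5 CPM in SD mCherry replicate 2, against 20541 and 10169 CPM in HFD Tert replicates 25 and 26. Crisp1, a secreted protein of the epididymis, was at 0.242 CPM in SD mCherry replicate 2 and at 7971 and 3063 CPM in those HFD Tert libraries. Akr1b7, the aldose reductase-like protein of the vas deferens, was at 0.339, 12458 and 7053 CPM in the same order. Its highest level, 37858 CPM, was in SD mCherry replicate 3, where Upk3a had 2 counts. Gpx5 and Adam7, on the same list, were low in HFD Tert replicate 25, at 1.28 and 5.02 CPM, and in replicate 26, at 3.95 and 2.88 CPM. Their highest levels, 15896 and 4360 CPM, were in HFD mCherry replicate 15. The list sums in HFD Tert replicates 25 and 26 thus came mostly from Akr1b7 and Crisp1 and do not describe the list as a whole. Over the 15 genes found, the summed level ran from 76.5 to 59672 CPM in SD mCherry, 10.8 to 38059 in HFD mCherry, 1.53 to 20541 in HFD Tert and 154 to 32854 in HFD TertCi. None was at 0 throughout SD mCherry or HFD mCherry, and 1 was at 0 throughout HFD Tert and 1 throughout HFD TertCi. Smooth muscle genes (6 of 6 tested) summed to 2819 CPM in SD mCherry replicate 2 and to 18085 and 25537 CPM in HFD Tert replicates 25 and 26, within ranges of 2819 to 25788 in SD mCherry, 1038 to 2956 in HFD mCherry, 2476 to 25537 in HFD Tert and 3863 to 15959 in HFD TertCi, none being at 0. The 18 general epithelial genes such as Epcam, an adhesion molecule, summed to 2555, 1776 and 985 CPM in the 3 libraries of high Upk3a level and to 181 to 2381 CPM in the rest, again with none at 0 throughout a group. High Upk3a levels therefore occurred both with abundant Crisp1 and Akr1b7 and with nearly none. The part of these tissues in the levels of the 10 genes was not tested.

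**Figure D5:**
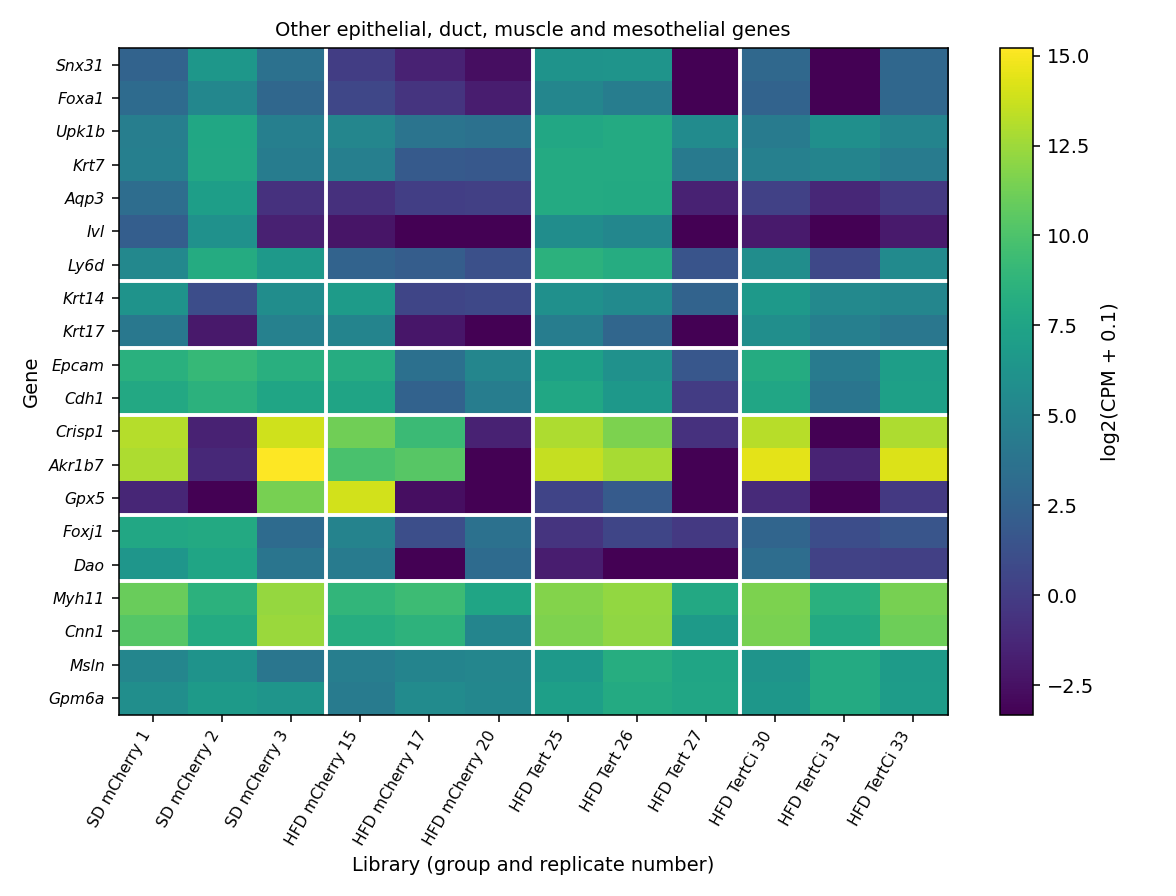
log2(CPM + 0.1) of 20 genes outside the list in the 12 libraries, in blocks for urothelial and stratified genes (Snx31 to Ly6d), basal keratins (Krt14, Krt17), general epithelium (Epcam, Cdh1), epididymis and vas deferens (Crisp1, Akr1b7, Gpx5), ciliated and absorptive epithelium (Foxj1, Dao), smooth muscle (Myh11, Cnn1) and mesothelium (Msln, Gpm6a). The first block is bright in SD mCherry 2, HFD Tert 25 and HFD Tert 26, and Crisp1 and Akr1b7 are dark in the first of these only.

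The genes whose pattern lay nearest were sought among all tested genes outside the list, by the mean absolute difference in log2(CPM + 0.1) over the 12 libraries after centring each profile on its median. Among the nearest to the mean profile of the 10 genes were Oit1 (0.629), Wfdc2 (0.669), Tnnt2 (0.792), Tuba8 (0.852), Urah (0.858), Foxq1 (0.860), Cers3 (0.926), Capn13 (0.971) and Krt23 (1.04). Wfdc2, a secreted protease-inhibitor-like protein of many epithelia, was at 62.6, 54.0 and 57.5 CPM in SD mCherry replicate 2, HFD Tert replicate 25 and HFD Tert replicate 26. Foxq1, a forkhead transcription factor, was at 197, 122 and 118 CPM there. Tnnt2, best known as cardiac troponin T, was at 58.3, 58.2 and 82.1 CPM. Nearest to Upk2 was Snx31, at a distance of 0.225, followed by Aldh3b2 (0.646), Foxa1 (0.698), Ly6d (0.816) and Tmprss13 (0.892). Nearest to Krt5 were Macc1 (0.719), Aldh3b2 (0.847), Serpinb5 (0.941), Lypd3 (0.988) and Plch2 (1.01). Snx31 lay closer to Upk2 than any gene did to Krt5. These distances describe 12 libraries, whose profiles share the same 3 high libraries, and carry no test.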

How the data were processed

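Per the labels' protocols, mRNA was selected on poly-T beads from column-extracted RNA, and random hexamers primed the cDNA. Each library has its own file of unnormalized counts by gene symbol, as deposited by the authors. Subread, SAMtools, featureCounts 1.6.4 and the build mm10 are named in the submitters' processing notes. The annotation, strand setting and handling of multi-mapped reads are not given in the sources used here. Reads shared by related keratin or Sprr genes are therefore uncertain. No row lacked a gene name (0 rows).

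Counts were used as deposited, with library totals of 16430330 to 19486965. Genes were filtered with filterByExpr (16713 kept of 24422), scaled by TMM (factors 0.854 to 1.15) and tested with edgeR 4.0.16 in R 4.3.3 (glmQLFit with robust estimation, 1 fit to 12 libraries in 4 groups, no covariate, 2-sided, Benjamini-Hochberg adjustment over all genes). DESeq2 1.42.0 and limma 3.58.1 were alternatives. The pipeline was tested on simulated data. A pseudocount of 0.1 was used on the log2 scale, and a library carried a gene at 1 CPM or more. Exon lengths and coordinates came from GENCODE M21 and promoters from RefSeq, both on GRCm38.

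The 10 genes and the lists were chosen with earlier results of these data known. Named genes were the 10 genes, up to 4 tested genes of highest CPM in each other list, any list gene called in a comparison, and the nearest genes (10 to the mean profile, 5 each to Upk2 and Krt5). One of the nearest genes is not reported here. Snx31, Foxa1, Ly6d and Lypd3 met the last part. The others named, such as Aqp3, Ivl, Krt14, Krt17, Sprr1b, Dsg3, Krt7, Klf5 and Lamb3, were chosen after their values were seen. Pdgfra was the 1 list gene called by edgeR (HFD TertCi against HFD mCherry, log2 fold change -1.84 ± 0.220, SE, adjusted p = 0.0426). Flg and Teddm1 were not found by symbol. Libraries were compared by label group only.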

Additional observations from a re-analysis of the deposited data

How the results depend on the processing

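No paired analysis was possible because no replicate number occurs in more than 1 group. All alternatives were planned except the removal of SD mCherry replicate 2 and HFD Tert replicates 25 and 26 together, which was chosen after the data were seen. Over the 5 tests (diet, Tert, TertCi, Tert against TertCi, and any group difference), edgeR called 8, 0, 2, 0 and 2 of all genes and DESeq2 2069, 849, 684, 7 and 2303. limma-voom called 0 in the diet comparison and 0 over the 4 groups, and fits to only the 6 libraries compared called 0 for the diet and 0 for TertCi. With library size alone TertCi had 1 called gene. Removing the 3 libraries gave 0 genes for the diet, 0 for TertCi and 0 over the 4 groups. In the 12 fits that each left out a library, counts ran from 0 to 2082 (diet), 0 to 51 (Tert), 0 to 198 (TertCi), 0 to 0 (Tert against TertCi) and 0 to 651 (any), the highest without HFD mCherry replicate 15 except where all were 0. Without HFD Tert replicate 27 the diet had 686 and any group difference 170 called genes, and without SD mCherry replicate 3 they had 48 and 513. The cause was not tested. None of the 10 genes was called by edgeR in these fits. The median log2 difference of the 10 genes ran from -5.38 to -2.51 (diet), 2.24 to 6.69 (Tert), 0.106 to 1.03 (TertCi) and 1.37 to 5.65 (Tert against TertCi) when a library of either group was left out. Without the 3 libraries it was -1.43 for Tert and -1.44 for Tert against TertCi, where HFD Tert keeps 1 library. A pseudocount of 1 gave -3.16, 3.01, 0.182 and 2.46 in the same order. Thresholds of 0.5 and 5 CPM changed the 71 gene and library pairs to 78 and 55. Of the 12 libraries, Krt13 had no count in 7, Upk3a and Psca in 6 each and Grhl3 in 5, which limits their folds.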

Other observations

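Krt20 was compared with genes of ciliated and absorptive epithelia, since it was also counted in libraries poor in uroplakins. The genes below were chosen after their values were seen. Foxj1, the transcription factor of motile cilia, was at 218, 239 and 8.71 CPM in SD mCherry, 30.8, 2.10 and 12.1 CPM in HFD mCherry, 0.583, 1.39 and 0.764 CPM in HFD Tert, and 6.37, 1.93 and 2.91 CPM in HFD TertCi. SD mCherry replicates 1 and 2 were thus high in Foxj1, and HFD Tert replicates 25 and 26, where Krt20 was at 103 and 82.0 CPM, were not. Dcdc2a, a doublecortin-domain gene, was at 390 and 547 CPM in SD mCherry replicates 1 and 2 and at 0.583 and 0.801 CPM in HFD Tert replicates 25 and 26. Hnf4a, a transcription factor of liver, gut and kidney epithelium, was at 69.6 and 93.6 CPM in the first pair and at 0.233 and 0.107 CPM in the second.

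HFD mCherry replicate 20 had Krt20 at 18.3 CPM with Krt5 at 0.239 CPM, Trp63 at 0 and Upk3a at 0. In that library Dcdc2a was at 26.5, Foxj1 at 12.1 and Dao, a D-amino acid oxidase, at 8.60 CPM. HFD mCherry replicate 17, with Krt20 at 0.962 CPM, had Dcdc2a and Dao at 0 and Foxj1 at 2.10 CPM. SD mCherry replicate 2 was the library with high levels of both sets, with Upk3a at 141, Krt20 at 213 and Dao at 193 CPM. The part of such epithelia in the level of Krt20 was not tested.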
